A study of Homo sapiens with 17 samples.

Results

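The genes described here are the 7 that encode the JUN and FOS proteins of the transcription factor AP-1, *JUN*, *JUNB* and *JUND* of the JUN family and *FOS*, *FOSB*, *FOSL1* and *FOSL2* of the FOS family. They were chosen by name, and all 7 were found among the 19222 genes of the 1 h experiment. AP-1 is a dimer of basic leucine zipper proteins. JUN proteins pair with each other or with a FOS protein, FOS proteins need a JUN partner, and the dimer binds the sequence TGACTCA and its variants. Most of these genes belong to the immediate early genes, which cells switch on without new protein synthesis when growth factors or stress arrive, and several of their mRNAs are known to be short-lived. Inhibitors of translation have long been known to raise *JUN* and *FOS* mRNA, and stalled ribosomes can signal through the kinases p38 and JNK, of which JNK phosphorylates the JUN protein.

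The cells were HEK-293T, a line of human embryonic kidney cells labeled wild type, so that every result is from 1 immortal line. In the 1 h experiment, cells received 500 µM 4-thiouridine (s4U) for 1 h with 1.8 µM emetine, an alkaloid that blocks the movement of ribosomes along mRNA (3 libraries), or without emetine (3 libraries), and 1 untreated and 1 emetine-treated library came from cells that received no s4U. In the 2 h experiment, 9 libraries carried 250 µM s4U, 3 each without emetine, with 1.8 µM and with 240 µM. TimeLapse sequencing (TL-seq) turns s4U into a base that is read as C, so a read with T-to-C conversions comes from RNA made during the labeling. The comparison of the 2 treatments at 1 h asks which transcripts changed in amount and which part of them was made during that hour.

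The 1 h libraries held between 22246279 and 40018063 reads given to 1 gene, and the members took 0.0179% to 0.0196% of them in the untreated and 0.0946% to 0.154% in the emetine libraries with s4U. Emetine replicate 3 stood apart: its log2 levels deviated from the mean of its group with an SD over genes of 0.273, against 0.124 to 0.172 in the other 5 libraries, so results that rest on it are also given without it. Of the markers of HEK-293T, all 5 (*KRT8*, *KRT18*, *VIM*, *NEFM*, *PAX2*) were read, and their summed level was 825 to 937 CPM (counts scaled to library size) in the untreated and 658 to 813 CPM in the emetine libraries. *VIM* made up most of this sum, at 595 to 657 CPM in the untreated libraries, with *NEFM* at 156 to 212 CPM and *KRT18* at 59.1 to 60.9 CPM. *KRT8*, at 5.09 to 7.06 CPM, and *PAX2*, at 1.23 to 2.19 CPM, were low there and stood below *COL1A1*, a marker of another cell type. Of 5 markers of other cell types, 3 had a row, *ALB* at 0 to 0.358 CPM, *PECAM1* at 0 to 0.0717 CPM and *COL1A1* at 19.3 to 28.1 CPM, summing to 21.9 to 28.1 CPM in the untreated and 19.4 to 25.1 CPM in the emetine libraries. The part of these differences in the results was not tested. Nothing in the labels says that replicates were separate cultures, so the spread between these libraries may be technical. In some tests below, p-values rest mostly on a spread pooled over genes.

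The promoters of 4 members on which the results turn are shown first, to put what is known of their control beside their levels. Each run holds 250 bases before and 50 bases after the annotated start of the gene, from RefSeq on GRCh38.p14, and is written 5′ to 3′ on the strand of the gene. Capitals mark matches, on either strand, to TGACTCA, TGACATCA, TGACGTCA, the CArG box, the TATA box letters TATAAA, the CCAAT box (those letters) and the GC box letters GGGCGG. No matches overlap in these windows.
*JUN* (chr1:58783998-58784297, minus strand): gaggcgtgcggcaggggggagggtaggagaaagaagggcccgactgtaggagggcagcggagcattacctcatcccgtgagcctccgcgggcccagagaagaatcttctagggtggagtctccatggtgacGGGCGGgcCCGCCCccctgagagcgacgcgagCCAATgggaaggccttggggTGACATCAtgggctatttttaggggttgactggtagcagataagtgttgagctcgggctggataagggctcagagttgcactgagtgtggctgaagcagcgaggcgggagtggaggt
*JUND* (chr19:18281573-18281872, minus strand): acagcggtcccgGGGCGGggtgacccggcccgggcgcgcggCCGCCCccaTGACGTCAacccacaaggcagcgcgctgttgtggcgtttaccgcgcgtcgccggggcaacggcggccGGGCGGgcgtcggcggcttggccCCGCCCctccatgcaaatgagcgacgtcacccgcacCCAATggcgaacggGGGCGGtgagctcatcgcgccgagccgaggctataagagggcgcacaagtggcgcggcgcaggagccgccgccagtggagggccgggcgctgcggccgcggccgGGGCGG
*JUNB* (chr19:12791236-12791535, plus strand): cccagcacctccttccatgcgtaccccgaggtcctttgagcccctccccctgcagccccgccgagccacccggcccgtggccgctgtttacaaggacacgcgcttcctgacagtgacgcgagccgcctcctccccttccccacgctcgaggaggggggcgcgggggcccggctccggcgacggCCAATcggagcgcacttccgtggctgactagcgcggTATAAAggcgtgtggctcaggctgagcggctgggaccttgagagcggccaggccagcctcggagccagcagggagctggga
*FOS* (chr14:75278578-75278877, plus strand): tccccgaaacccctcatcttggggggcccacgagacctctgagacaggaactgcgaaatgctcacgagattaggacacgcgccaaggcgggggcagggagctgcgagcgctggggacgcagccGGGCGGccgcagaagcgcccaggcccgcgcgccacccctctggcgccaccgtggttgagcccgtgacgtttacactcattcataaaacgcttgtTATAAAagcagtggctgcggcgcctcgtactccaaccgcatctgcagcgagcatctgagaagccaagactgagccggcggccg

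The *JUN* window holds TGACATCA, a variant of the AP-1 site, at -67 from the start, with CCAAT at -87 and GGGCGG on each strand at -119 and -111. TGACATCA is in 2.61% of 35116 human promoter windows of this length. The *JUND* window holds TGACGTCA, the site bound by CREB and ATF proteins, at -200, which 1.85% of windows hold, with CCAAT at -74 and 6 matches to GGGCGG. *JUNB* holds CCAAT at -67 and TATAAA at -31, and *FOS* holds TATAAA at -33 and GGGCGG at -127. CCAAT is in 34.6% of windows, TATAAA in 11.5% and GGGCGG in 45.0%. Of the 6 members with a window, *FOSL2* alone holds TGACTCA, at 4 bases after the start, a motif of 4.95% of windows. None holds a match to the CArG box, a motif of 1.29% of windows, in these letters. Sites more than 250 bases before the start were not searched, so a gene may hold a CArG box there. *FOSB* holds TATAAA at -30 and GGGCGG at -67 and -46. *FOSL1* is only named here. A match is a description of these letters.

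The genes differ in their build. *JUN* (chr1:58776845-58784048), *JUNB* (chr19:12791486-12793315) and *JUND* (chr19:18279694-18281622) have canonical transcripts of 1 exon in GENCODE 44 on GRCh38, the assembly that hg38 names. *FOS* (chr14:75278826-75282230), *FOSB* (chr19:45467995-45475179), *FOSL1* (chr11:65892049-65900573) and *FOSL2* (chr2:28392448-28417317) have 4 exons. Only reads given to exons were counted per gene, so intronic reads of the FOS family were not analysed here. *JUNB* shares 259 of its 1830 exon bases with *HOOK2* on the opposite strand. The libraries were made with a stranded kit, but the strand setting of the counting is not given in the sources used here, so reads of those bases may belong to either gene, and *JUNB* is uncertain to that extent.

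Levels are CPM of all reads of genes, with library sizes scaled by TMM. The level of *JUN*, the founding member of AP-1, was 118, 122 and 125 CPM in the 3 untreated libraries and 1008, 839 and 1271 CPM in the 3 emetine libraries. All emetine libraries lay far above all untreated ones. This was the second largest rise of 13776 genes tested (log2 change 3.10, SE 0.16, adjusted p = 7.86e-05, edgeR), and 2.93 on the log2 scale without emetine replicate 3. In bulk RNA, a change in the number of cells that hold a transcript and a change in the amount per cell cannot be told apart. *JUN* made up 58.5% to 65.2% of the members' reads in the untreated and 86.5% to 90.5% in the emetine libraries.

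*JUND*, a family member with a high basal level in many cell types, was at 68.6, 49.6 and 58.9 CPM in untreated cells and at 130, 82.1 and 96.8 CPM with emetine. The groups did not overlap, but the difference did not pass the threshold of an adjusted p of 0.05 (log2 change 0.80, SE 0.18, adjusted p = 0.0518, edgeR). It passed in 7 alternatives, with an adjusted p between 0.00165 (DESeq2) and 0.234 over all of them. It was called without emetine replicate 2 (log2 change 0.94, adjusted p = 0.0262) and without emetine replicate 3 (0.85, adjusted p = 0.00206). *JUNB*, which can oppose JUN at some target genes, was at 7.52, 9.25 and 10.3 CPM in untreated and at 12.5, 9.53 and 13.3 CPM in emetine libraries, so that the groups overlapped. Its log2 change was 0.38 (SE 0.17, adjusted p = 0.238, edgeR).

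Among the FOS genes, *FOS*, the classical immediate early gene and partner of JUN, stood at 2.01, 1.26 and 2.03 CPM in untreated and at 6.08, 5.14 and 11.6 CPM in emetine libraries. The groups were apart, and the highest value was that of emetine replicate 3. The rise was significant (log2 change 2.12, SE 0.35, adjusted p = 0.0187, edgeR) and ranked 8 of 13776 by size, from 43 to 56 reads per untreated and 206 to 310 reads per emetine library. It was 1.70 without emetine replicate 3 (adjusted p = 0.000222, edgeR). The call was lost when any of the untreated libraries was left out, with an adjusted p of 0.113, 0.126 and 0.103 without untreated replicates 1, 2 and 3 and log2 changes of 2.23, 1.905 and 2.22.

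*FOSL2*, also known as FRA2, was at 3.19, 2.69 and 2.22 CPM and, with emetine, at 4.25, 4.34 and 6.19 CPM, again without overlap. Its log2 change of 0.85 (SE 0.22) had an adjusted p of 0.0847 by edgeR, and 0.66 with an adjusted p of 0.0408 without emetine replicate 3. *FOSB*, whose short splice form is known from the brain, was at 1.93, 1.72 and 3.49 CPM in untreated and at 3.80, 3.07 and 5.40 CPM in emetine libraries, with overlap (log2 change 0.80, SE 0.31, adjusted p = 0.203, edgeR). *FOSL1*, or FRA1, known from invasive tumor cells, was hardly read in this line, with 8 to 22 reads in each library. It was at 0.681, 0.315 and 0.708 CPM in untreated and at 0.571, 0.549 and 0.3001 CPM in emetine libraries and was too low for the test across genes. No difference was detectable by an exact permutation test (two-sided p = 0.5, n = 3 per group, smallest possible p 0.1).

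**Figure D1:**
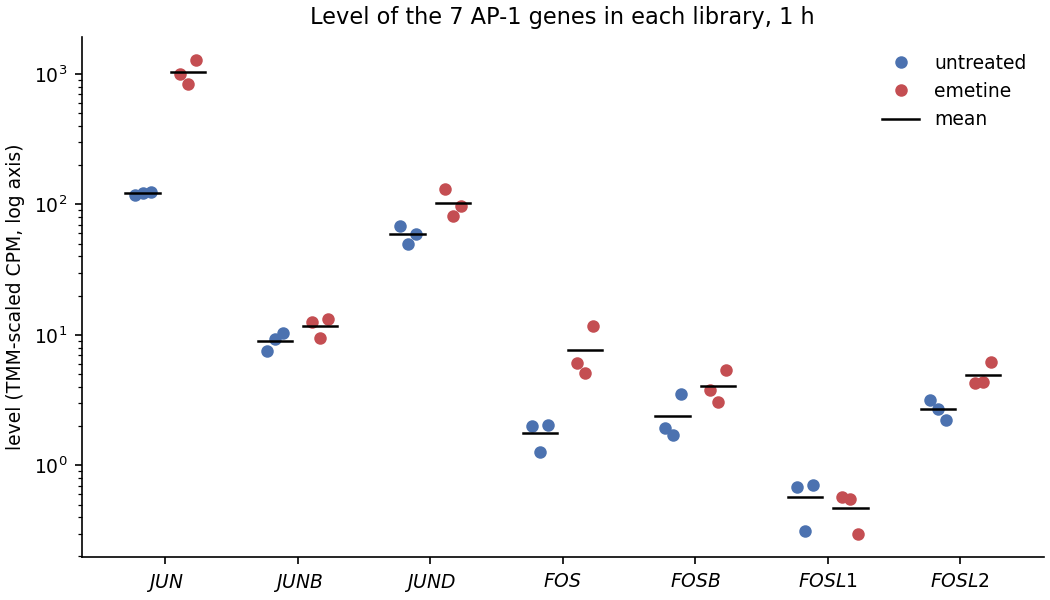
Level of the 7 members in each 1 h library, in CPM on a log scale, with untreated and emetine libraries side by side and bars at the group means. *JUN* stands at 118 to 125 CPM without and 839 to 1271 CPM with emetine, while the groups of *JUNB*, *FOSB* and *FOSL1* overlap.

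Counted over the members, 2 of the 6 that could be tested rose (*JUN* and *FOS*) and none fell, where 2.65% of all 13776 genes rose and 0.0436% fell at an adjusted p under 0.05. At an unadjusted p under 0.05, 958 of all genes were lower with emetine, and none of the members, and DESeq2 called none of them lower. All 3 emetine libraries lay above all 3 untreated ones for 4 of the 7 members (*JUN*, *JUND*, *FOS* and *FOSL2*), as they did for 19.5% of all genes tested. The median log2 change of all genes was 0.030. With the counts scaled to the spike-in reads instead, the median of all genes moved to 0.71. The log2 changes were then 3.82 for *JUN*, 2.88 for *FOS*, 1.59 for *JUND*, 1.57 for *FOSB*, 1.54 for *FOSL2* and 1.11 for *JUNB*, all above that shift. Such scaling moves all genes of a library together, so this is not a separate result. Only *JUN* and *FOS* were called under it, and the other 4 had an adjusted p of 0.0798 (*JUND*) to 0.196 (*JUNB*, edgeR). With TMM scaling, 365 of all genes were higher and 6 lower. These counts were 796 and 140 with DESeq2, and 673 and 516 after a trend on length and GC content was removed.

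The rise of *JUN* was set against that of each other member by the log2 ratio of the 2 genes in each library. The ratio of *JUN* to *FOSL1* gained 3.19 on the log2 scale, that to *JUNB* 2.71, to *FOSB* 2.38, to *FOSL2* 2.31, to *JUND* 2.29 and to *FOS* 1.29. For each of the 6 pairs, every emetine library lay beyond every untreated one. The rise of *JUN* itself enters every pair, and the share of all genes with such a gap to *JUN* was not computed. The gap is therefore not read as a trait of the other members. The exact permutation test gave a two-sided p of 0.1 for each (0.1 after adjustment over the 6 pairs), which is the smallest that 3 libraries against 3 can give, so no pair could pass the threshold.

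Levels of different genes were compared per kb of merged exons. In untreated cells, *JUN* stood at 33.5 ± 0.875 CPM per kb (SD, n = 3) and *JUND* at 30.6 ± 4.92, which overlapped, so the 2 lead together with 47.6% and 43.1% of the summed level of the 7 genes. *JUNB* followed at 4.94 ± 0.773 CPM per kb. The FOS genes were all far lower, *FOS* at 0.554 ± 0.137, *FOSB* at 0.429 ± 0.174, *FOSL2* at 0.377 ± 0.0679 and *FOSL1* at 0.301 ± 0.116 CPM per kb, and each overlapped its neighbour in this order.

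With emetine the order was the same, but its spread was wider. *JUN* stood at 287 ± 59.96 CPM per kb, 81.6% of the sum, and *JUND* at 53.4 ± 12.8 CPM per kb, 15.4% of it. *JUNB* was at 6.43 ± 1.09 and *FOS* at 2.39 ± 1.10 CPM per kb, the latter now apart from *FOSB* at 0.736 ± 0.215 and *FOSL2* at 0.688 ± 0.153, which overlapped. *FOSL1* came last at 0.251 ± 0.0797 CPM per kb. With the length of the longest transcript in place of merged exons, *JUN* was at 37.3 CPM per kb in untreated cells and above *JUND* in every library.

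The 2 libraries without s4U gave a second look at the levels without the label, with 1 library per treatment and so with no replicate check. Here CPM and ratios were taken without TMM scaling, while the ratios of means with s4U set beside them are TMM-scaled. *JUN* was at 163 CPM in the untreated and 1436 CPM in the emetine library, a ratio of 8.83 (95% interval for counting error 8.54 to 9.12), beside 8.55 for the means with s4U. With TMM scaling the same libraries were at 165 and 1415 CPM. The ratio was 2.38 (2.25 to 2.51) for *JUND* and 2.98 (2.29 to 3.92) for *FOS*, beside 1.75 and 4.31 with s4U. It was 1.58 (1.376 to 1.83) for *JUNB*, 1.69 (1.31 to 2.19) for *FOSL2* and 1.55 (1.13 to 2.16) for *FOSB*. *FOSL1*, with 28 and 14 reads, was the only member with a ratio below 1, at 0.382 (0.186 to 0.750). These intervals compare 2 libraries, not the treatments, and cover counting error only, since no molecular identifiers are described.

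The fraction new is the share of a gene's reads that came from RNA made during the hour of labeling, estimated from the number of T-to-C conversions per read. The conversions show it directly for *JUND*, where 80.4%, 73.1% and 70.9% of reads had no conversion in the untreated libraries and 46.7%, 45.8% and 45.9% in the emetine libraries. In the libraries without s4U, 98.5% and 98.6% of its reads had none. For *JUN* the share of reads without a conversion was 30.4%, 24.5% and 22.1% in untreated and 23.1%, 20.5% and 22.9% in emetine libraries, so the groups overlapped. Such shares also depend on the T positions per read. Their mean for *JUN* was 26.4, 30.6 and 26.8 in untreated and 23.5, 28.9 and 22.7 in emetine libraries. The estimated fraction new of every member was at most 0.197% in the libraries without s4U.

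**Figure D2:**
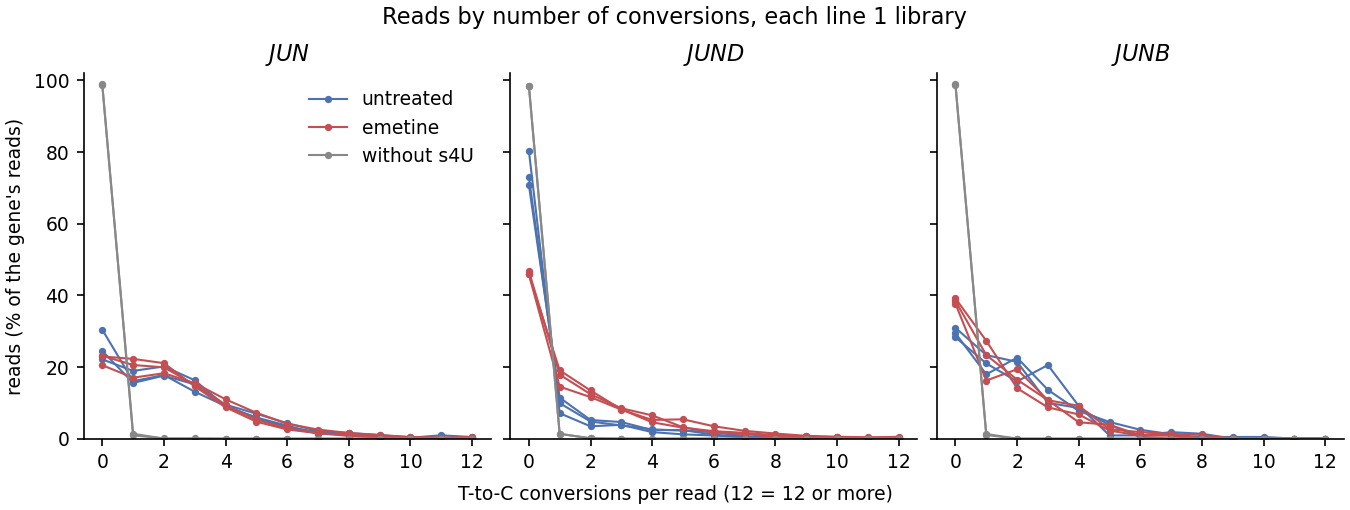
Share of reads of *JUN*, *JUND* and *JUNB* by their number of T-to-C conversions (12 stands for 12 or more), with 1 line per library, colored by treatment and gray without s4U. The *JUND* reads without conversion make up 70.9% to 80.4% in untreated and 45.8% to 46.7% in emetine libraries, while the lines of *JUN* lie together.

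The fraction new of *JUND* was 20.03%, 29.0% and 31.8% in untreated and 63.4%, 61.2% and 66.6% in emetine libraries. This was a mean of 26.9% ± 6.13 against 63.8% ± 2.70 (SD, n = 3), with a wide gap between the groups. The change in its logit was 1.58 (SE 0.23, adjusted p = 1.49e-06, limma), which ranked 7 by size among the increases of 10763 genes read at least 100 times in every library. It passed the threshold in every alternative run on genes with at least 100 or 500 reads. With genes of at least 20 reads included, it was called (adjusted p = 0.0370, limma), but not when untreated replicate 3 was also left out (adjusted p = 0.128, limma).

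The fraction new of *JUN* was high in both treatments, 78.7%, 84.3% and 90.1% in untreated and 90.0%, 89.1% and 91.7% in emetine libraries, with overlap. Its logit changed by 0.50 (SE 0.29, adjusted p = 0.411, limma). Weighting the libraries by reads gave an adjusted p of 0.0107. Measured by the share of reads with at least 2 conversions, the change was 0.016 (adjusted p = 0.977, limma). That share also depends on the T positions per read, which were fewer in the emetine library of each replicate number. *JUNB* lay at 79.4%, 80.9% and 88.8% in untreated and lower, at 75.2%, 71.96% and 76.7%, in all emetine libraries, a difference that was not significant (logit -0.54, SE 0.27, adjusted p = 0.302, limma) unless untreated replicate 1 was left out (-0.68, adjusted p = 0.0471).

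The FOS genes had fewer reads, and their fraction new was tested among 12945 genes read at least 20 times in every library. *FOS* was almost all new in both treatments, at 78.2%, 90.7% and 97.2% in untreated and 96.5%, 92.1% and 96.6% in emetine libraries (logit 0.68, SE 0.56, adjusted p = 0.672, limma). *FOSB* lay at 37.7%, 34.5% and 33.8% in untreated and at 59.9%, 49.3% and 62.2% in emetine libraries, without overlap (logit 0.90, SE 0.23, adjusted p = 0.119, limma). *FOSL2* lay the other way, at 39.1%, 58.8% and 65.9% in untreated and at 27.6%, 36.6% and 38.05% in emetine libraries, also without overlap (logit -0.86, SE 0.30, adjusted p = 0.237, limma). Without untreated replicate 1, both passed the threshold, *FOSB* with a change of 0.95 (adjusted p = 0.0383, limma) and *FOSL2* with -1.18 (adjusted p = 0.0286, limma). *FOSL1* had too few reads for an estimate in single libraries.

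Of the 3 members with at least 100 reads in each library, 1 (*JUND*) had a higher fraction new and none a lower one, where 0.214% of the 10763 genes were higher and 4.83% lower. With at least 20 reads, it was again *JUND* alone of 6 members, where 0.0463% of 12945 genes were higher and 0.131% lower. The direction of the members was mixed beside a median change in logit of -0.16 over all genes. All emetine libraries lay above all untreated ones for *JUND* and *FOSB*, as for 2.53% of genes, and below them for *JUNB* and *FOSL2*, as for 16.3% of genes. The difference between members was tested for the 2 other genes with at least 100 reads: relative to *JUN*, the logit of *JUNB* moved down by 1.04 and that of *JUND* moved up by 1.08 (exact permutation test, two-sided p = 0.1 for both, adjusted over the 2 pairs 0.1, n = 3 per group, the smallest possible).

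The level and the fraction new together split each transcript into labeled reads, made during the hour, and unlabeled reads, taken as made before it. This split assumes labeling from the start of the hour, which was not tested. RNA made in the hour before the label took effect would count as unlabeled. Labeled *JUN* was 93.2, 103 and 112 CPM in untreated and 907, 748 and 1165 CPM in emetine libraries. This was the largest rise of all 10763 genes (log2 change 3.17, SE 0.19, adjusted p = 6.5e-60, limma). In this test of labeled reads, the SE of each member came from the spread pooled over genes, not from its own libraries. Its very small p-values therefore do not measure the spread between the libraries of a single gene. Unlabeled *JUN*, far less abundant, was 25.2, 19.1 and 12.3 CPM in untreated and 101, 91.5 and 105 CPM in emetine libraries. This was a 5.27-fold difference in the means, and it was significant too (log2 change 2.42, SE 0.22, adjusted p = 0.000627, limma). Of the rise in the mean level of *JUN*, 91.2% was labeled (90.3% to 91.7% with each library left out in turn).

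*JUND* rose in its labeled reads, from 13.7, 14.4 and 18.7 CPM in untreated to 82.7, 50.3 and 64.5 CPM in emetine libraries (log2 change 2.02, SE 0.22, adjusted p = 3.95e-17, limma). Its unlabeled reads, 54.9, 35.3 and 40.2 CPM against 47.7, 31.8 and 32.3 CPM, overlapped between the groups. Their log2 change was -0.22 (SE 0.20, adjusted p = 0.477, limma), and 0.40 when scaled to the spike-in reads. *JUNB* showed the other side, with labeled reads at 5.98, 7.49 and 9.17 CPM against 9.38, 6.86 and 10.2 CPM (log2 change 0.21, SE 0.25, adjusted p = 0.813, limma). Its unlabeled reads were 1.55, 1.76 and 1.16 CPM in untreated and 3.09, 2.67 and 3.11 CPM in emetine libraries, a rise (log2 change 0.81, SE 0.18, adjusted p = 0.0302, limma) whose call was lost when any library other than emetine replicate 3 was left out, with an adjusted p of up to 0.120 (without untreated replicate 3), and with spike-in scaling (adjusted p = 0.0919).

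*FOS* rose in labeled reads, at 1.57, 1.14 and 1.97 CPM in untreated and 5.87, 4.73 and 11.2 CPM in emetine libraries (log2 change 1.85, SE 0.27, adjusted p = 4.98e-09, limma, with at least 20 reads in each library). Its unlabeled reads were near 0 in both groups, at 0.204 ± 0.204 and 0.336 ± 0.108 CPM (SD, n = 3). *FOSB* rose in labeled reads too, from 0.834 ± 0.307 to 2.38 ± 0.929 CPM (log2 change 1.08, SE 0.27, adjusted p = 0.0170, limma). That call was lost without untreated replicate 2 (0.96, adjusted p = 0.478), emetine replicate 1 (1.09, adjusted p = 0.209) or emetine replicate 3 (0.85, adjusted p = 0.477).

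*FOSL2* differed from *FOS* and *FOSB* in that its labeled reads overlapped between the groups, 1.43 ± 0.170 CPM in untreated and 1.70 ± 0.600 CPM in emetine libraries (log2 change 0.16, SE 0.27, adjusted p = 0.892, limma), and -0.04 without emetine replicate 3. Its unlabeled reads were 1.94, 1.11 and 0.756 CPM in untreated and 3.08, 2.75 and 3.83 CPM in emetine libraries, a rise (log2 change 1.12, SE 0.25, adjusted p = 0.0271, limma) that was not called without untreated replicate 2 (1.08, adjusted p = 0.113) or untreated replicate 3 (0.90, adjusted p = 0.128). The difference between members in these changes was not tested. Labeled reads made up 97.7% of the difference in mean level for *FOS*, 90.7% for *FOSB*, 114% for *JUND*, 46.5% for *JUNB* and 12.3% for *FOSL2*. With each library left out in turn, these shares ran from 95.8% to 99.0% for *FOS*, from 76.1% to 104% for *FOSB*, from 101% to 137% for *JUND*, from 24.6% to 61.6% for *JUNB* and from -3.19% to 21.1% for *FOSL2*.

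**Figure D3:**
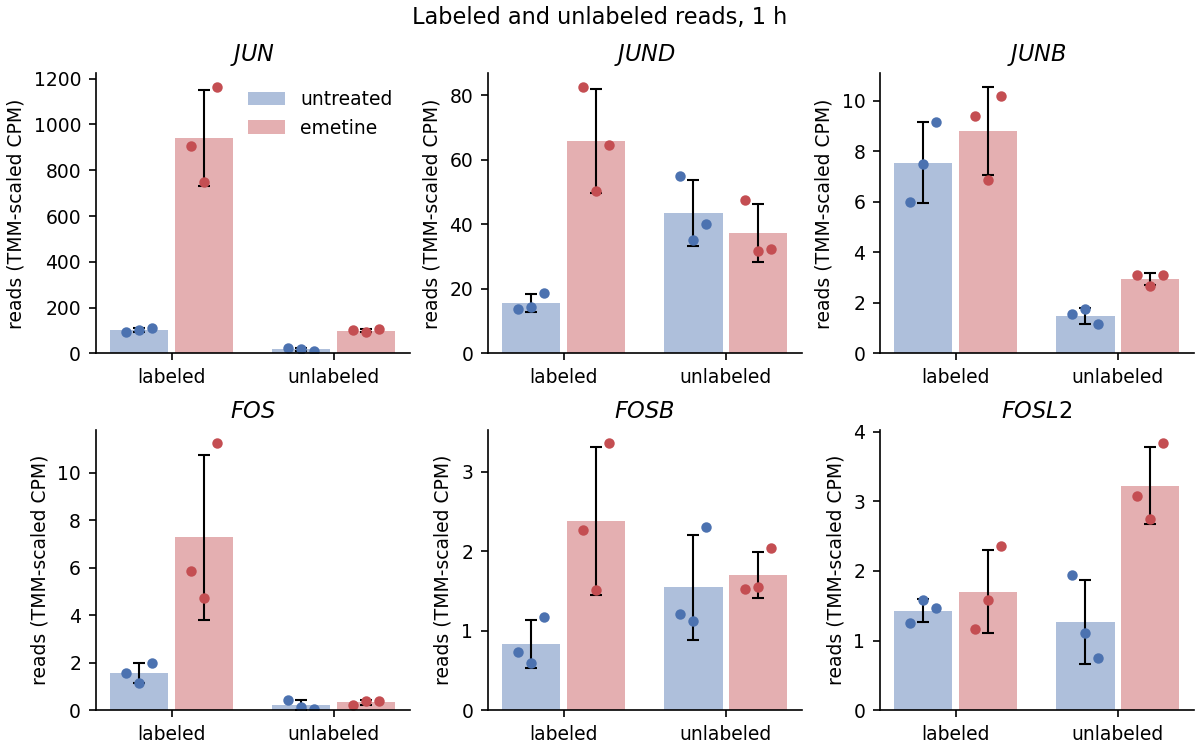
Labeled and unlabeled level of 6 members in each 1 h library with s4U, in CPM on a linear scale. Bars show the group means with their SD. *JUN* is higher with emetine in both parts, *JUND*, *FOS* and *FOSB* in the labeled part and *JUNB* and *FOSL2* in the unlabeled part.

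Counted over the members, labeled reads rose for 2 of 3 (*JUN* and *JUND*) and fell for none with at least 100 reads in each library, beside 0.26% of genes that rose and 0.632% that fell. With at least 20 reads, labeled reads rose for 4 of 6 (*FOS* and *FOSB* in addition), beside 0.324% of genes. Unlabeled reads rose for 2 of 3 (*JUN* and *JUNB*) and fell for none, beside 7.3% of genes that rose and 0.0929% that fell, and for 3 of 6 with at least 20 reads (*FOSL2* in addition), beside 7.27% of genes. *JUN* was the only member called in both parts.

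**Figure D4:**
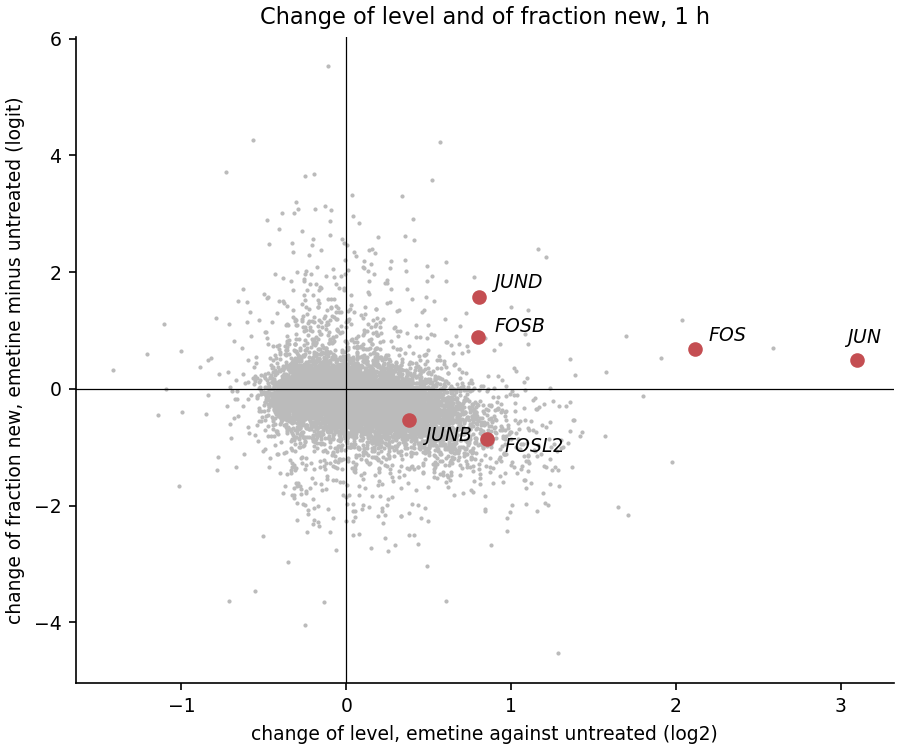
Change of level (log2) against change of fraction new (logit) with emetine at 1 h, with genes in gray and the tested members named. Among these members, *JUN* has the largest change in level (3.10) and *JUND* the largest in fraction new (1.58).

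In untreated cells, the fraction new gives a half-life if the transcript is at a steady state and labeled from the start of the hour, neither of which was tested. *FOS* had the shortest, at 27.3, 17.5 and 11.6 min (18.8 ± 7.90, SD, n = 3), with *JUN* at 26.9, 22.5 and 18.0 min (22.4 ± 4.44) and *JUNB* at 26.3, 25.1 and 19.0 min (23.5 ± 3.91). These 3 overlapped, and between 99.2% and 99.4% of tested genes had longer half-lives, the median gene 338 min. *FOSL2* followed at 83.8, 46.9 and 38.6 min (56.4 ± 24.0), *FOSB* at 88.0, 98.2 and 101 min (95.7 ± 6.83) and *JUND* at 186, 122 and 109 min (139 ± 41.4), each shorter than at least 82.1% of tested genes. *FOSL2* and *FOSB* did not overlap with each other or with the 3 shortest. The libraries differed in one way for all but *FOSB*, with the longest half-life in untreated replicate 1. This was not particular to the members. Over all gene reads, the new share was also lowest in that library, at 7.84% against 10.03% and 11.7% in untreated replicates 2 and 3.

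AU-rich elements in the 3′ UTR, built around the pentamer ATTTA, are known to speed the decay of *FOS* and other early gene mRNAs. All 7 canonical 3′ UTRs held at least 1 ATTTA, as did 74.1% of 12067 tested genes with a 3′ UTR. The density was highest in *FOS*, with 5 in 806 bases (6.20 per kb), followed by *JUNB* with 2 in 500 (4 per kb), *JUN* with 3 in 1284 (2.34 per kb) and *FOSL2* with 9 in 4869 (1.85 per kb), beside a median of 1.72 per kb over genes. It was below that median in *FOSB* (3 in 2167, 1.384 per kb), *JUND* (1 in 747, 1.34 per kb) and *FOSL1* (1 in 837, 1.19 per kb). A stretch of 30 bases is shown for 4 members, from the densest run of each, with ATTTA in capitals, 5′ to 3′ on the strand of the gene (GRCh38), to show overlapping, spaced and single copies.
*FOS* (chr14:75282047-75282076, plus strand): aaacgttttattgtgtttttaATTTATTTA
*FOSL2* (chr2:28416342-28416371, plus strand): agaagaaattgacATTTAttttattATTTA
*JUN* (chr1:58781348-58781377, minus strand): tgtttctgaaaattccagaaaggatATTTA
*JUND* (chr19:18280010-18280039, minus strand): agaacagagtgttcgattctgccctATTTA

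In these stretches *FOS* and *FOSL2* have 2 copies each, which overlap in *FOS*, and *JUN* and *JUND* have 1. Over the 6 members with a half-life, the order from the densest to the sparsest ATTTA was that from the shortest to the longest half-life, except that *JUN* and *JUNB*, whose half-lives overlapped, changed places. By number of copies the order did not hold: *FOSL2* had the most with 9, and *FOSB* had 3, as *JUN* did. The densities of *FOSB* and *JUND* were close, at 1.384 and 1.34 per kb. This is a description of 6 genes, and neither order was tested.

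Spliced reads of the FOS genes gave one more readout that the choice of genes did not use. Reads that crossed an exon junction made up 18.2% of *FOS* reads in the untreated libraries (26 of 143, 95% Clopper-Pearson interval 12.2% to 25.5%) and 16.0% in the emetine libraries (117 of 729, 13.5% to 18.9%). For *FOSL2* these shares were 8.70% and 10.0%, and for *FOSB* 6.38% and 6.75%. *FOSL1* had 3 such reads of 45 in the untreated and 2 of 50 in the emetine libraries. The shares pool the reads of all libraries of a group, so the intervals leave out the spread between libraries. They overlapped for each gene, and a difference between the treatments was not tested.

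The other genes of the pathway were described from 5 lists. Among 15 partner genes of the ATF, BATF, JDP and MAF families, 14 were tested in level. Of these, 2 rose, beside 2.65% of all genes, and none fell, beside 0.0436%. Their median log2 change was 0.15 beside 0.030 for all genes. *ATF3*, a stress-induced bZIP repressor that pairs with JUN, rose from 23.0 ± 4.27 to 86.4 ± 4.23 CPM (log2 change 1.91, SE 0.14, adjusted p = 0.000845, edgeR). None of the 9 tested in fraction new passed the threshold, where 0.214% of all genes were higher and 4.83% lower.

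None of the 18 genes of the JNK and p38 cascade was called in level, where 2.65% of all genes rose. The smallest p-value was that of *MAP3K1*, a kinase upstream of JNK (log2 change 1.00, SE 0.24, adjusted p = 0.0701, edgeR), and the median was 0.021. Its fraction new fell from 47.2% to 30.1% (logit -0.73, adjusted p = 0.0384, limma), as the only one of 17 tested, where 4.83% of all genes were lower. Of 10 factors that act at immediate early promoters, none was called in level, with *MKL1* (MRTFA), an actin-regulated partner of SRF, at 0.42 (adjusted p = 0.0699, edgeR) and a median of 0.17. The fraction new of *MEF2C* fell from 25.3% to 12.6% (logit -0.83, adjusted p = 0.00975, limma), as the only one of these 10, again beside 4.83% of all genes. A single call in lists of this size is near that share.

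Of 10 genes of JUN and FOS protein turnover and cofactors, none passed in either test. Over all genes, 2.65% rose in level and 4.83% had a lower fraction new. The median log2 change in level was 0.18, and *FBXW7*, which marks JUN for degradation, had a logit change in fraction new of -0.74 (adjusted p = 0.0539, limma). Of 18 textbook AP-1 targets, 11 had enough reads and none was called in level (median -0.05), with *TGFB1* at -0.32 (adjusted p = 0.189, edgeR). None of the 9 tested in fraction new was called, with *MT2A* at a logit change of 0.54 (adjusted p = 0.177, limma). Both counts stand beside the same shares of all genes.

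For each of the 6 members with a mean of at least 1 CPM, the 2 genes with the most similar profile over the 8 libraries of 1 h were found by the root mean square difference of centred log2 levels. The nearest to *JUN* were *DUSP1*, a phosphatase of JNK and p38 (0.358), and *TXNIP*, an inhibitor of thioredoxin (0.562). *DUSP1* rose from 39.9 to 239 CPM and had a fraction new of 96.2% and 98.0%. The nearest to *FOS* were *ATF3* (0.295) and the immediate early gene *EGR1* (0.296, log2 change 1.70). The same libraries chose these genes, so a gene near a member that rose must rise too. Its change in level is not a separate result.

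The nearest to *JUND* were *IER2*, another immediate early gene (0.160), and *HIST1H2BD*, a histone gene (0.179). The mean fraction new of *IER2* was 66.9% without and 58.3% with emetine, and that of *HIST1H2BD* was 14.0% and 49.2%, beside the 26.9% and 63.8% of *JUND*. The nearest to *FOSL2* were *CEP295* (0.0874, log2 change 0.89) and *ZNF114* (0.104), and those of *FOSB* were *PPP1R12B* (0.151) and *PITPNM3* (0.151). Those of *JUNB* were *ID4* (0.157) and *HS3ST3B1* (0.160). A smaller difference here can also reflect a smaller change, since profiles that move little are close to many others.

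At 2 h, *JUN* and *JUND* were in the tables used, and the other 5 members were not analysed here. The authors' mean of normalized counts over the 2 h libraries was 23349 for *JUN*, rank 33 of 9982 genes, and 1887 for *JUND*, rank 2456. These means pool untreated and treated libraries, so they give no change with dose.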

How the data were processed

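For the 1 h experiment, the authors trimmed adapters with cutadapt, aligned the reads to hg38 with a HISAT program that tolerates T-to-C changes, and deposited, without normalization, the read counts of each gene by number of T positions and conversions in each of the 8 libraries. Reads given to no gene or to several were left out here (17.1% to 18.3% per library), as were spike-in reads (0.304% to 0.728%) except for scaling. For the 2 h experiment, the signal values used were the means of normalized counts that the authors made with spike-in size factors over all 2 h libraries. The authors' own fold changes and p-values in those tables were not used, and the 2 h counts per library and the table of spike-in factors were not analysed here.

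The 8 row names of the 1 h table were matched to sample titles by treatment, control and replicate number. Counts of each gene were added up and tested in R 4.3.3 by the quasi-likelihood method of edgeR 4.0.16 (TMM), which took 13776 genes whose 6 libraries summed to over 100 counts. The fraction new was fitted by maximum likelihood in Python 3.11.15 as the share of new reads in a mixture of 2 binomial distributions, with the background rate from the library without s4U of the same treatment (0.0504% and 0.0521% of T positions) and a new-read rate fitted per library (8.49% to 9.53%). Its logit, bounded at 0.001 and 0.999, and log2 of labeled or unlabeled CPM plus 0.5 were compared with limma 3.58.1 (trend, robust), which pools the spread over genes. Fold changes of labeled and unlabeled reads are on that scale, which understates low genes. Tests were two-sided, Benjamini-Hochberg adjusted over all genes tested and called at an adjusted p of 0.05. The study's own software for the fraction new was not run. Steps were tested on simulated data. Libraries held 22246279 to 40018063 reads of genes, the FOS members rested on 8 to 310 of them per library, and intervals cover counting error only.

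Named were all 7 members. From each list, up to 2 called genes per direction were named in the tests of level and fraction new, or, where none was called, the gene with the smallest p-value. The 2 nearest profiles of each member were named as well. Some genes that this rule names are not reported here. Members and lists were chosen with earlier results of these data known, and the fits with at least 20 reads that were also centred, blocked or run without a library were added after the data had been seen. Alternatives were DESeq2 1.42.0, other scalings, filters and added CPM, removal of a trend on length and GC content (mgcv 1.9.3), the replicate number as a block, and leaving out each library. Gene models came from GENCODE 44. Figures were drawn with matplotlib 3.10.9.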

Additional observations from a re-analysis of the deposited data

How the results depend on the processing

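Of the counts, levels, half-lives and differences recomputed under alternatives, 163 were within 1.5 times or 1 SD of their reported value and 27 were not. The number of members raised in level (2) was 4 with DESeq2, 4 after removal of the length and GC trend, 1 with more than 1000 counts in total (3 members tested) and 1 to 4 with each library left out, 1 without any untreated library and 4 without emetine replicate 3. Higher fractions new numbered 2 when weighted by reads (*JUN* added), and 0 to 2 among members with at least 20 reads when a library was left out. Lower ones numbered 0 to 1 in both sets when a library was left out. Members with more labeled reads numbered 4 with at least 20 reads. Those with more unlabeled reads numbered 1 with spike-in scaling, 1 with the replicate block, 1 to 2 with a library left out, and 1 to 3 among members with at least 20 reads. With the longest transcript as length, the levels in CPM per kb were 37.3 for *JUN*, 0.839 for *FOS* and 0.631 for *FOSB* in untreated and 3.62 for *FOS* and 1.08 for *FOSB* in emetine cells. Unlabeled *JUND* turned to 0.40 with spike-in scaling, and labeled *FOSL2* to -0.040 without emetine replicate 3. The causes were not tested. Of single changes in a member, 214 kept direction and side of the threshold, 14 passed it only in the alternative and 15 lost it. Over all genes, the counts higher and lower in level were 60 and 0 with spike-in scaling, 511 and 8 with at least 1 count, 75 and 3 with the replicate block, 437 and 206 with the trend removed and the block, 4 and 0, 5 and 0, and 18 and 1 without untreated replicates 1, 2 and 3, and 132 and 2, 239 and 7, and 1367 and 525 without emetine replicates 1, 2 and 3. Those in fraction new were 40 and 647 with the replicate block and 126 and 748 when centred.

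The replicate numbers were not shown to pair the libraries: deviations of same-numbered libraries correlated at 0.083, 0.019 and -0.12 in level and at 0.056, 0.0025 and 0.022 in fraction new, and not every library correlated best with its own number. With the replicate block, 3 members were raised in level (*JUND* added), 1 had a higher fraction new, 2 more labeled and 1 more unlabeled reads, and the exact test by sign changes of the pairs gave p = 0.25 for each pair of *JUN* with another member, the smallest possible. *FOS*, *FOSB*, *FOSL1* and *FOSL2* rested on 8 to 310 reads per library, which limits what can be said of them.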
